A study of Mus musculus with 11 samples.

Results

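Levels of 10 regulators of mammary cell fate and hormone response were compared between tumors with and without *Pcbp1*. The genes were chosen by name from the 26283 genes of the deposited tables: the luminal factors *Gata3* and *Foxa1*, the ETS factors *Elf5* and *Ehf*, the hormone receptors *Esr1*, *Pgr* and *Prlr*, and *Sox9*, *Sox10* and *Trp63*, factors of progenitor or basal cells. Mammary epithelium is built from luminal cells, which line the ducts and make milk, and from basal cells, which surround them and contract. A small set of transcription factors sets these fates, and receptors for estrogen, progesterone and prolactin relay the hormones that drive growth of the gland.

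RNA was sequenced from whole mammary tumors of 18-week-old C57BL/6 female mice, 6 PyMT *Pcbp1*–/– and 5 PyMT *Pcbp1*+/+. Both groups carried the oncogene MMTV-PyMT, which makes polyoma middle T antigen, and an MMTV-Cre transgene. The *Pcbp1* alleles were floxed in PyMT *Pcbp1*–/– animals (*Pcbp1* fl/fl) and wild type in PyMT *Pcbp1*+/+ animals (wt/wt), and since the MMTV promoter drives Cre in mammary epithelium, other cells of a tumor keep the gene. The comparison asked what loss of *Pcbp1*, which encodes a protein that binds RNA and DNA, changes in gene expression. Estimated counts summed to 11708919, 13334560, 11239931, 13674718, 14092192 and 12937012 in PyMT *Pcbp1*–/– replicates 1 to 6 and to 10945798, 10543189, 11411776, 10975700 and 11198153 in PyMT *Pcbp1*+/+ replicates 1 to 5. Levels are given as CPM, counts per 1000000 counts of a tumor, and a count of 3 corresponded to between 0.213 and 0.285 CPM, a limit that covers counting error only.

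*Pcbp1* itself was between 15.4 and 33.6 CPM in the PyMT *Pcbp1*–/– tumors and between 219.5 and 271 CPM in the PyMT *Pcbp1*+/+ tumors, so every tumor matched its label. The 10 regulators and receptors all passed the filter on low counts and were all expressed in every tumor, with no fewer than 60.0 estimated counts for any of them in any tumor. In whole tumors, fewer cells of a type and less RNA per cell cannot be told apart. None of the 10 differed between the genotypes at an adjusted p under 0.05 (edgeR quasi-likelihood test, Benjamini-Hochberg adjustment over 19232 genes). The same threshold called 2.27% of all genes tested, 1.66% as lower and 0.608% as higher in PyMT *Pcbp1*–/– tumors. At an unadjusted p under 0.05 the count was also 0 of 10 with edgeR, against 18.7% of all genes, and it was 1 of 10 with DESeq2, against 19.4%, and 1 of 10 with limma-voom, against 30.3%. The limma-voom fit differed from edgeR in the tool and also in sample quality weights, which count tumors that vary more for less, and the parts of these 2 choices were not told apart. After adjustment DESeq2 called 0 of the 10 and 6.34% of all genes, and limma-voom 0 of the 10 and 11.2%. None of the 10 separated the groups without overlap in CPM, which 3.29% of all genes did. Of the 10 log2 fold changes, 4 were above 0 and 6 below, with a median of -0.013 beside -0.00012 for all genes tested. The median standard error was 0.30 for the 10 genes and 0.17 for all genes.

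**Figure D1:**
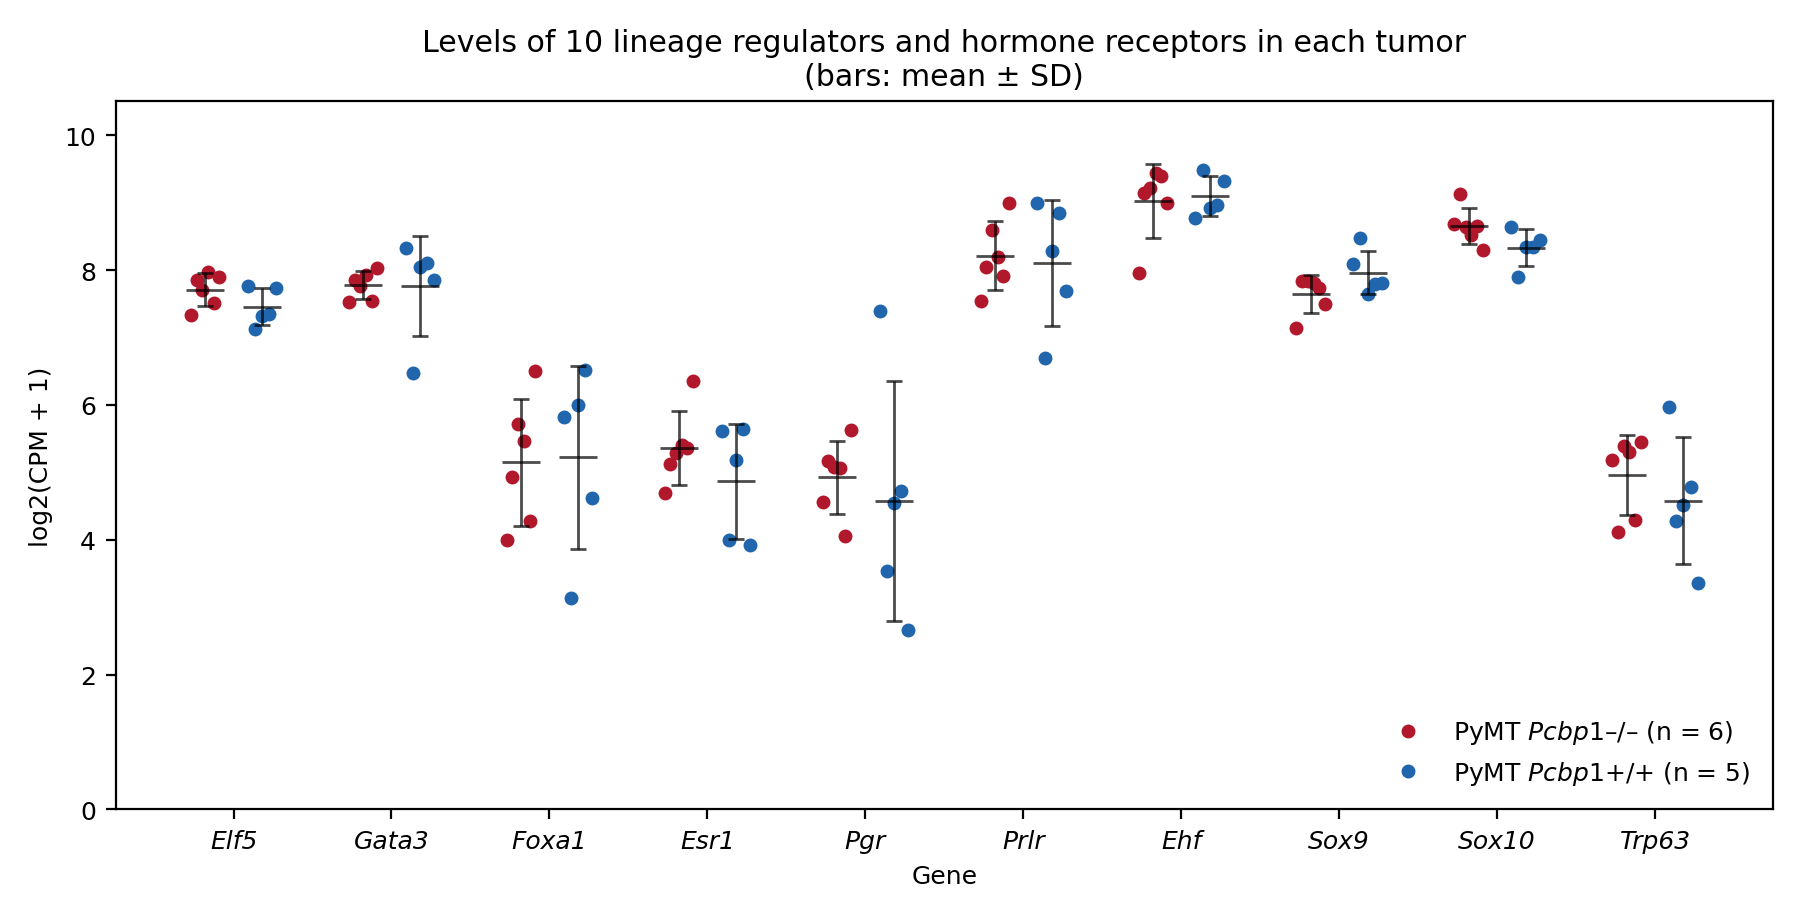
Level of each gene as log2(CPM + 1) on the vertical axis for 6 PyMT *Pcbp1*–/– tumors (red) and 5 PyMT *Pcbp1*+/+ tumors (blue), 1 point per tumor, with black bars for the mean ± SD. The groups overlap for all 10 genes, and *Pgr* and *Foxa1* spread widest among PyMT *Pcbp1*+/+ tumors.

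Levels of different genes were compared per length, as CPM per kilobase of exon. The length counts each base in any annotated exon of a gene once, so it can exceed that of a single transcript. The order of the genes can depend on this length, and other lengths were not tested. *Sox10*, a factor best known from neural crest and also made by mammary basal and progenitor cells, had the highest mean of the 10 over all tumors, at 111 ± 24.2 CPM per kilobase (SD, n = 11). *Ehf* followed at 97.9 ± 24.3 (SD, n = 11), and *Sox10* was above *Ehf* in 8 of 11 tumors. These 2 could not be ordered in PyMT *Pcbp1*+/+ tumors, where *Sox10* averaged 97.9 ± 17.4 and *Ehf* 98.7 ± 21.0 CPM per kilobase (SD, n = 5), beside 122 ± 24.6 and 97.3 ± 28.7 in PyMT *Pcbp1*–/– tumors (SD, n = 6). *Sox9* and *Gata3*, at 54.0 ± 12.8 and 49.8 ± 13.3 (SD, n = 11), could not be ordered, since *Sox9* was the higher in 6 of 11 tumors. *Elf5* lay below *Gata3* in 10 of 11 tumors at 33.3 ± 6.33 (SD, n = 11). Next came *Prlr* at 16.9 ± 7.27 and *Foxa1* at 13.2 ± 8.56 (SD, n = 11), with *Prlr* above *Foxa1* in 9 of 11 tumors. The least abundant by this measure were the steroid receptors and the basal factor. *Pgr* averaged 4.45 ± 5.22, *Trp63* 3.57 ± 1.82 and *Esr1* 2.73 ± 1.32 CPM per kilobase (SD, n = 11), with *Pgr* above *Trp63* in 4 and *Trp63* above *Esr1* in 7 of 11 tumors, so that these 3 could not be ordered.

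*Elf5* and *Ehf* encode related ETS factors of epithelia, and *Elf5* is required for alveolar cells to mature under prolactin. They lie 108409 bases apart on chromosome 2, with 2 other genes of the tables between them (all positions are on GRCm38). *Elf5* (ENSMUSG00000027186.14, chr2:103411688-103450989, plus strand) ranged from 159.8 to 249.8 CPM across PyMT *Pcbp1*–/– tumors, with a median of 218, against 216, 138, 159, 162 and 211 CPM across PyMT *Pcbp1*+/+ replicates 1 to 5. *Elf5* was highest in PyMT *Pcbp1*–/– replicate 4 and lowest in PyMT *Pcbp1*+/+ replicate 2, and the groups overlapped, with 5 of 6 PyMT *Pcbp1*–/– tumors above the PyMT *Pcbp1*+/+ mean. The difference did not pass the test (log2 fold change 0.25, standard error 0.15, 95% confidence interval -0.077 to 0.57, adjusted p = 0.398). Across PyMT *Pcbp1*–/– tumors the level of *Ehf* (ENSMUSG00000012350.15, chr2:103263433-103303278, minus strand) was between 247 and 691 CPM, with a median of 579, and across PyMT *Pcbp1*+/+ replicates 1 to 5 it was 437, 718, 483, 497 and 638 CPM. Here PyMT *Pcbp1*–/– replicate 1 was the lowest of the 11 tumors and PyMT *Pcbp1*+/+ replicate 2 the highest, and the groups overlapped. No difference between the genotypes was detected for *Ehf* (log2 fold change -0.026, standard error 0.24, 95% confidence interval -0.54 to 0.49, adjusted p = 0.966), and its sign turned with limma-voom and without any 1 of PyMT *Pcbp1*–/– replicate 1, PyMT *Pcbp1*+/+ replicate 2 and PyMT *Pcbp1*+/+ replicate 5 (adjusted p between 0.633 and 0.985 over 22 alternatives). Although neighbours, *Elf5* and *Ehf* showed no detectable relation across the 11 tumors (Pearson r = 0.224, permutation p = 0.545, adjusted p = 0.664 over 45 pairs; Spearman rho = 0.118, permutation p = 0.735, adjusted p = 0.827), nor with the 2 tumors farthest from the *Elf5* median left out (r = 0.554, exact p = 0.113).

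*Gata3* maintains luminal cell fate, and *Foxa1* is a forkhead factor that opens chromatin for the estrogen receptor. The levels of *Gata3* (ENSMUSG00000015619.10, chr2:9857078-9890034, minus strand) were 319, 87.4, 263, 274 and 229.8 CPM across PyMT *Pcbp1*+/+ replicates 1 to 5, and lay from 183 to 261 CPM around a median of 223 among PyMT *Pcbp1*–/– tumors. Replicate 2 of the PyMT *Pcbp1*+/+ group stood below all other tumors and replicate 1 of that group above them, so that the PyMT *Pcbp1*–/– tumors fell inside the PyMT *Pcbp1*+/+ range. The *Gata3* difference was small beside this spread (log2 fold change -0.094, standard error 0.25, 95% confidence interval -0.63 to 0.45, adjusted p = 0.874). It was -0.30 without PyMT *Pcbp1*+/+ replicate 2 and 0.0068 without PyMT *Pcbp1*+/+ replicate 1, and its sign also turned with limma on log2(CPM + 1), to 0.015 (adjusted p between 0.178 and 0.995 over 22 alternatives). The *Gata3* locus is overlapped by 3 other annotated genes, none above 5.71 CPM on average beside 226 CPM for *Gata3*. Strand cannot tell apart reads shared with *RP23-276D17.3*, which lies on the same strand as *Gata3*. Reads shared with the others cannot be told apart where strand was not counted. *Foxa1* (ENSMUSG00000035451.7, chr12:57540628-57546916, minus strand) ranged from 15.0 to 89.8 CPM across PyMT *Pcbp1*–/– tumors, with a median of 36.3, against 55.6, 7.78, 63.0, 91.0 and 23.6 CPM across PyMT *Pcbp1*+/+ replicates 1 to 5. *Foxa1* was again lowest in PyMT *Pcbp1*+/+ replicate 2, and it was highest in PyMT *Pcbp1*+/+ replicate 4, with PyMT *Pcbp1*–/– replicate 6 close to it. The highest value was 11.7 times the lowest among PyMT *Pcbp1*+/+ tumors and 6.01 times among PyMT *Pcbp1*–/– tumors. With that spread no difference was detectable (log2 fold change -0.21, standard error 0.56, 95% confidence interval -1.42 to 1.00, adjusted p = 0.874). Without PyMT *Pcbp1*+/+ replicate 4 the *Foxa1* log2 fold change turned to 0.11, and without PyMT *Pcbp1*–/– replicate 6 it was -0.62 (adjusted p between 0.542 and 0.980 over 22 alternatives).

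*Esr1* encodes the estrogen receptor of luminal hormone-sensing cells, and *Pgr*, the progesterone receptor gene, is one of its classical targets. Across PyMT *Pcbp1*–/– tumors the level of *Esr1* (ENSMUSG00000019768.16, chr10:4611593-5005614, plus strand) was between 24.8 and 80.9 CPM, with a median of 38.9, and across PyMT *Pcbp1*+/+ replicates 1 to 5 it was 48.1, 14.9, 35.3, 48.8 and 14.1 CPM. Replicate 6 stood apart at the top of the PyMT *Pcbp1*–/– group, and replicates 2 and 5 of the PyMT *Pcbp1*+/+ group were the lowest of all tumors. The groups overlapped and the difference did not pass the test (log2 fold change 0.44, standard error 0.37, 95% confidence interval -0.35 to 1.24, adjusted p = 0.549). Without PyMT *Pcbp1*–/– replicate 6 the *Esr1* estimate was 0.15, without PyMT *Pcbp1*+/+ replicate 2 or 5 it was 0.26 and 0.27, and with limma-voom 0.22 (adjusted p between 0.440 and 0.841 over 22 alternatives). The levels of *Pgr* (ENSMUSG00000031870.16, chr9:8899833-8968611, plus strand) were 167, 10.6, 22.4, 25.3 and 5.36 CPM across PyMT *Pcbp1*+/+ replicates 1 to 5, and lay from 15.7 to 48.3 CPM around a median of 32.7 among PyMT *Pcbp1*–/– tumors. A single tumor, PyMT *Pcbp1*+/+ replicate 1, held far more *Pgr* than any other, while PyMT *Pcbp1*+/+ replicates 2 and 5 held the least. The interval was wide (log2 fold change -0.50, standard error 0.68, 95% confidence interval -1.97 to 0.97, adjusted p = 0.730), and the estimate turned to 0.95 without PyMT *Pcbp1*+/+ replicate 1, to 0.15 with limma-voom and its weights on tumors and to 0.35 with limma on log2(CPM + 1) (adjusted p between 0.266 and 0.873 over 22 alternatives). Without PyMT *Pcbp1*+/+ replicate 5 it was -0.78. Against the PyMT *Pcbp1*+/+ median 5 of 6 PyMT *Pcbp1*–/– tumors were higher in *Pgr*, and against the PyMT *Pcbp1*+/+ mean 5 of 6 were lower. *Prlr* encodes the prolactin receptor, which signals through JAK2 and STAT5. *Prlr* (ENSMUSG00000005268.20, chr15:10177238-10349180, plus strand) ranged from 186 to 507 CPM across PyMT *Pcbp1*–/– tumors, with a median of 277, against 509, 103, 310.0, 457 and 205 CPM across PyMT *Pcbp1*+/+ replicates 1 to 5. The highest values were those of PyMT *Pcbp1*+/+ replicate 1 and PyMT *Pcbp1*–/– replicate 6, and the lowest was that of PyMT *Pcbp1*+/+ replicate 2. *Prlr* gave the smallest difference of the 10 (log2 fold change -0.00070, standard error 0.36, 95% confidence interval -0.78 to 0.77, adjusted p = 0.999), and its sign turned in 11 of 22 alternatives, among them without any 1 of PyMT *Pcbp1*–/– replicates 1, 2, 4 and 5 and PyMT *Pcbp1*+/+ replicates 1, 3 and 4 (log2 fold change -0.22 to 0.20 with each tumor left out; adjusted p between 0.695 and 1.000 over 22 alternatives).

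*Sox9* and *Sox10* encode related factors found in progenitor cells of the gland. Across PyMT *Pcbp1*–/– tumors the level of *Sox9* (ENSMUSG00000000567.5, chr11:112782224-112787760, plus strand) was between 140.3 and 229 CPM, with a median of 218, and across PyMT *Pcbp1*+/+ replicates 1 to 5 it was 270.1, 354, 199.7, 222 and 224 CPM. All 6 PyMT *Pcbp1*–/– tumors were below the PyMT *Pcbp1*+/+ mean, but only 3 were below the PyMT *Pcbp1*+/+ median, and PyMT *Pcbp1*+/+ replicate 2 was the highest tumor. The *Sox9* difference did not pass the test (log2 fold change -0.32, standard error 0.16, 95% confidence interval -0.67 to 0.022, adjusted p = 0.298). Without PyMT *Pcbp1*+/+ replicate 2 the *Sox9* estimate was -0.18, and with limma-voom -0.14 (adjusted p between 0.262 and 0.708 over 22 alternatives). The levels of *Sox10* (ENSMUSG00000033006.10, chr15:79154908-79165240, minus strand) were 398, 238, 323, 322 and 349 CPM across PyMT *Pcbp1*+/+ replicates 1 to 5, and lay from 315 to 559 CPM around a median of 399 among PyMT *Pcbp1*–/– tumors. *Sox10* was highest in PyMT *Pcbp1*–/– replicate 2 and lowest in PyMT *Pcbp1*+/+ replicate 2, with 5 of 6 PyMT *Pcbp1*–/– tumors above the PyMT *Pcbp1*+/+ mean. The groups still overlapped, since PyMT *Pcbp1*–/– replicate 6 lay below 4 of the PyMT *Pcbp1*+/+ tumors, and the adjusted p was the lowest of the 10 genes (log2 fold change 0.32, standard error 0.15, 95% confidence interval -0.0062 to 0.64, adjusted p = 0.276). *Trp63* encodes p63, the factor that defines basal cells. *Trp63* (ENSMUSG00000022510.14, chr16:25683763-25892102, plus strand) ranged from 16.3 to 42.9 CPM across PyMT *Pcbp1*–/– tumors, with a median of 36.9, against 61.3, 18.5, 21.8, 26.4 and 9.29 CPM across PyMT *Pcbp1*+/+ replicates 1 to 5. PyMT *Pcbp1*+/+ replicate 1 was the highest tumor and PyMT *Pcbp1*+/+ replicate 5 the lowest, so that the PyMT *Pcbp1*–/– tumors lay inside the PyMT *Pcbp1*+/+ range. No difference was detectable for *Trp63* (log2 fold change 0.26, standard error 0.39, 95% confidence interval -0.60 to 1.12, adjusted p = 0.759), and the estimate was 0.74 without PyMT *Pcbp1*+/+ replicate 1 and 0.050 without PyMT *Pcbp1*+/+ replicate 5 (adjusted p between 0.290 and 0.954 over 22 alternatives).

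**Figure D2:**
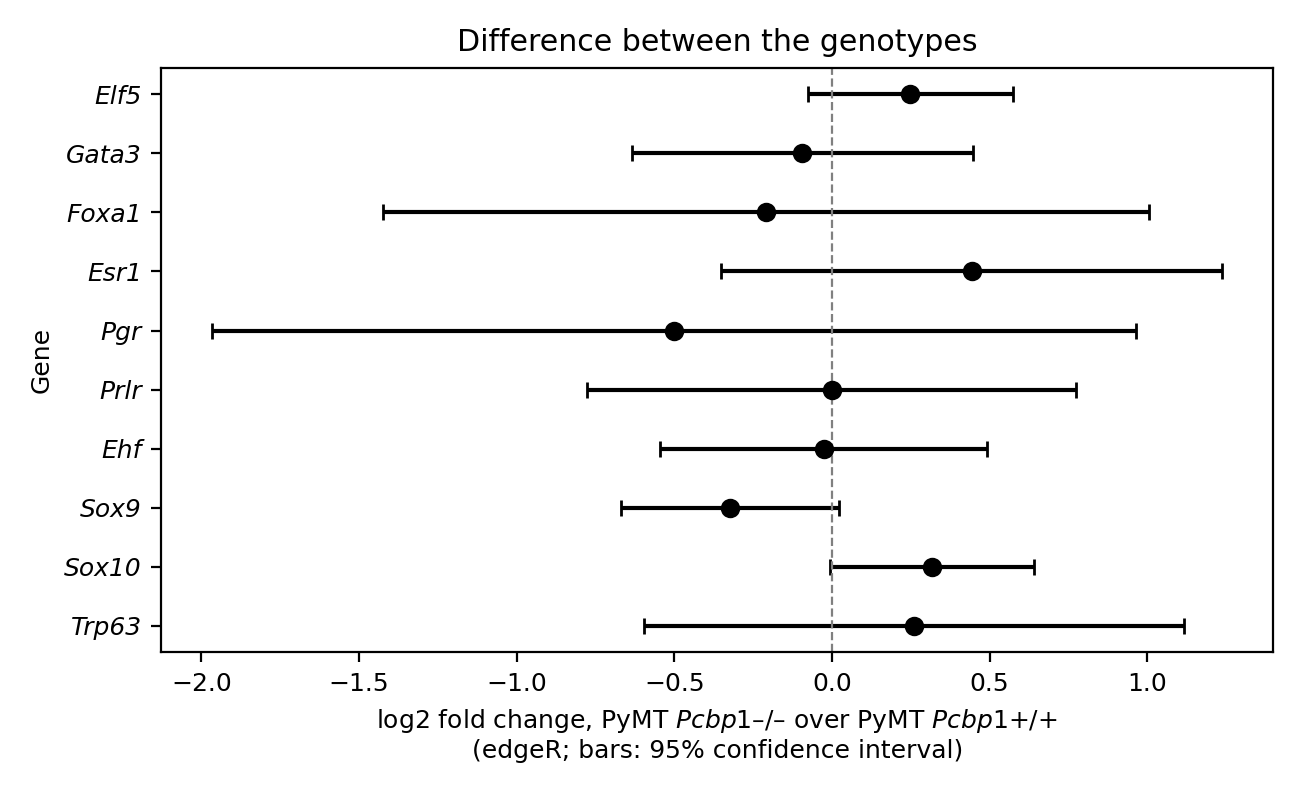
Log2 fold change of each gene on the horizontal axis, PyMT *Pcbp1*–/– over PyMT *Pcbp1*+/+, from edgeR with 6 and 5 tumors, as a point with its 95% confidence interval. All 10 intervals include 0, and the intervals of *Pgr* and *Foxa1* are the widest.

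The order of the tumors differed from gene to gene. PyMT *Pcbp1*+/+ replicate 2 was the lowest of the 11 tumors in 5 genes (*Elf5*, *Gata3*, *Foxa1*, *Prlr* and *Sox10*) and the highest in 2 (*Ehf* and *Sox9*). PyMT *Pcbp1*+/+ replicate 1 was the highest in 4 genes, namely *Gata3*, *Pgr*, *Prlr* and *Trp63*. PyMT *Pcbp1*+/+ replicate 5 was the lowest in *Esr1*, *Pgr* and *Trp63*. Of the 11 tumors, PyMT *Pcbp1*–/– replicate 6 was the highest or next highest in 6 genes. PyMT *Pcbp1*–/– replicate 1 was the lowest of the 11 in *Ehf* and *Sox9*.

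**Figure D3:**
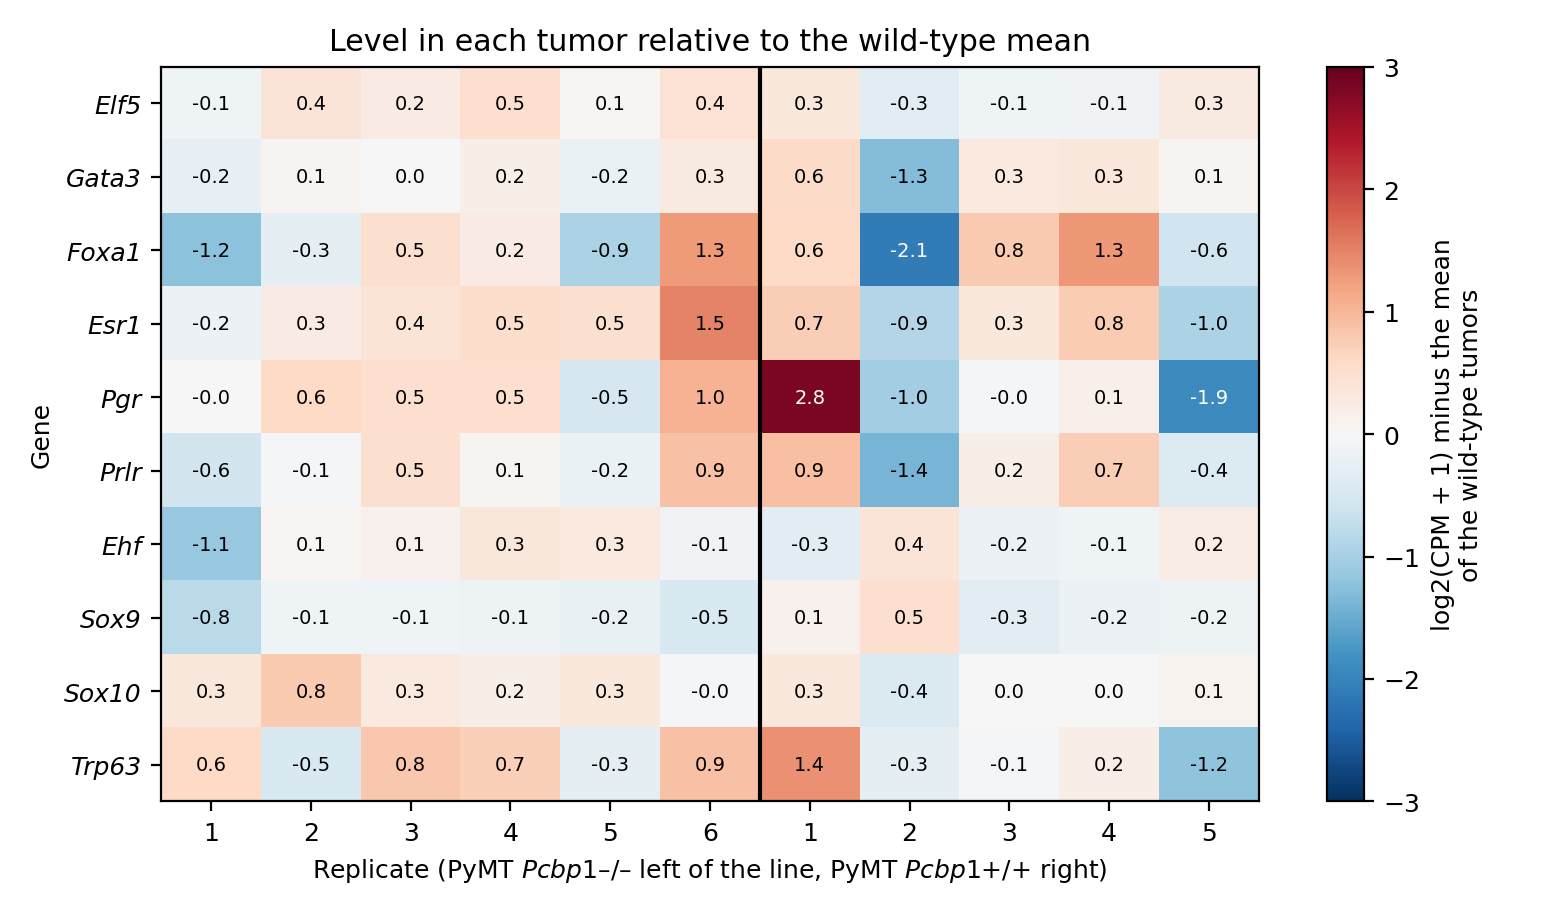
Level of each gene (rows) in each tumor (columns, by replicate number) as log2(CPM + 1) minus the mean of the 5 PyMT *Pcbp1*+/+ tumors, red above and blue below that mean. PyMT *Pcbp1*+/+ replicate 2 is blue in *Gata3*, *Foxa1*, *Esr1*, *Pgr* and *Prlr* together, and PyMT *Pcbp1*+/+ replicate 1 is darkest red in *Pgr*.

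Across the 11 tumors some of the 10 genes varied together. Of the 45 pairs, 6 were related at an adjusted p under 0.05 by Pearson's r of log2(CPM + 1), all positively, and 4 of these also by Spearman's rho (two-sided permutation tests with 100000 resamples, Benjamini-Hochberg over the 45 pairs). The labels give a single batch. How often pairs of other genes pass this threshold was not tested, so the count shows nothing particular to these 10 genes. The strongest relation joined the forkhead factor and the prolactin receptor: *Foxa1* and *Prlr* gave r = 0.941 (permutation p = 6.00e-05, adjusted p = 0.00270) and rho = 0.909 (permutation p = 3.60e-04, adjusted p = 0.0162). It held with the 2 tumors farthest from the *Foxa1* median left out (r = 0.867, exact p = 0.00362). *Gata3* varied with *Foxa1* (r = 0.848, permutation p = 3.50e-04, adjusted p = 0.00484, rho = 0.873, permutation p = 9.50e-04, adjusted p = 0.0214), also without the 2 tumors farthest from the *Gata3* median (r = 0.887, exact p = 0.00184). *Gata3* and *Prlr* gave r = 0.879 (permutation p = 3.60e-04, adjusted p = 0.00484) and rho = 0.836 (permutation p = 0.00232, adjusted p = 0.0261), with r = 0.712 after the same 2 tumors were left out (exact p = 0.0333). *Esr1* joined this group through *Prlr* (r = 0.863, permutation p = 4.30e-04, adjusted p = 0.00484, rho = 0.845, permutation p = 0.00192, adjusted p = 0.0261), and r was 0.822 without the 2 tumors farthest from the *Esr1* median (exact p = 0.00379).

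The other 2 pairs passed by r but not by rho. *Foxa1* and *Esr1* gave r = 0.793 (permutation p = 0.00324, adjusted p = 0.0243) and rho = 0.764 (permutation p = 0.00839, adjusted p = 0.0629), with r = 0.659 after leaving out the 2 tumors farthest from the *Foxa1* median (exact p = 0.0444). *Pgr* and *Trp63* gave r = 0.846 (permutation p = 0.00106, adjusted p = 0.00954) and rho = 0.736 (permutation p = 0.0123, adjusted p = 0.0712). That relation was weaker without PyMT *Pcbp1*+/+ replicates 1 and 5, the tumors farthest from the *Pgr* median. In the 9 other tumors r was 0.603 (exact p = 0.0872). Within the 6 PyMT *Pcbp1*–/– tumors alone r was 0.970 for *Foxa1* and *Prlr* (exact p = 0.00278), 0.900 for *Gata3* and *Foxa1* (exact p = 0.0208), and 0.795 for *Gata3* and *Prlr* (exact p = 0.0611). It was 0.877 for *Esr1* and *Prlr* (exact p = 0.0278), 0.836 for *Foxa1* and *Esr1* (exact p = 0.0319) and 0.468 for *Pgr* and *Trp63* (exact p = 0.381). Some other pairs gave values in the same range in this group. *Elf5* and *Gata3* gave r = 0.939 (exact p = 0.00694; r = 0.583 over all 11) there, *Ehf* and *Sox9* 0.924 (exact p = 0.0306; r = 0.682 over all 11), *Gata3* and *Pgr* 0.909 (exact p = 0.0139; r = 0.561 over all 11), and *Foxa1* and *Pgr* 0.864 (exact p = 0.0292; r = 0.559 over all 11). The value for *Sox10* and *Trp63* was negative, at r = -0.770 (exact p = 0.0264; r = 0.0489 over all 11). With 6 tumors the exact test cannot go below p = 0.00139, which for a single pair is 0.0625 after adjustment over 45 pairs. This group was thus too small for 1 pair to pass by itself. PyMT *Pcbp1*+/+ replicate 2 lay at the low end of most of these relations, and without it 3 of the 45 pairs passed in place of 6. Over all tumors *Elf5*, *Ehf*, *Sox9* and *Sox10* were in none of the 6 pairs.

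**Figure D4:**
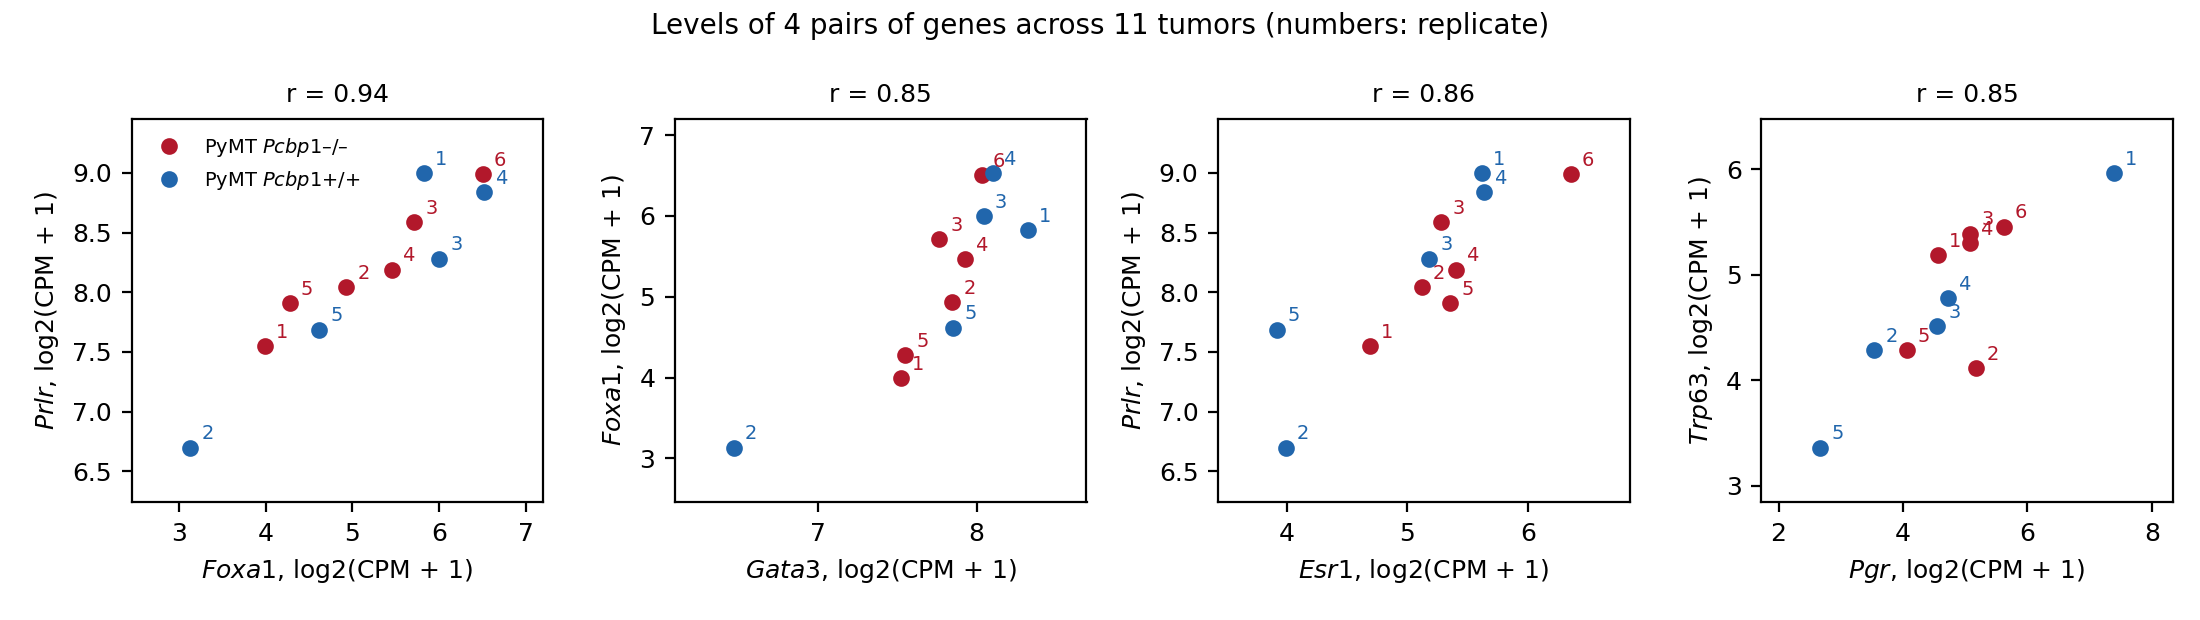
Levels of 4 pairs of genes as log2(CPM + 1), 1 point per tumor with its replicate number, PyMT *Pcbp1*–/– in red (n = 6) and PyMT *Pcbp1*+/+ in blue (n = 5). *Prlr* is higher where *Foxa1* is higher over the 11 tumors, with r = 0.941, and PyMT *Pcbp1*+/+ replicates 1 and 5 are the ends of the plot of *Pgr* and *Trp63*.

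Because *Foxa1* and *Prlr* varied together most closely, the 250 bases before annotated gene starts were searched on both strands for TGTTTAC, the core letters that forkhead factors bind. The RefSeq sequences used here (GRCm38.p6) matched 6 of the 10 genes in 10 windows, and *Ehf*, *Sox9*, *Sox10* and *Trp63* were not searched. The letters were found in 1 window each of *Foxa1* and *Prlr* and in no window of *Gata3*, *Elf5*, *Esr1* and *Pgr*. Of all 32851 such windows, 3.17% held them. The *Foxa1* window is chr12:57546112-57546361 on the minus strand, where the match reads as the reverse complement, and the *Prlr* window is chr15:10223656-10223905 on the plus strand, at 1 of 3 starts used for the gene. Both windows lie inside the span given above for their gene, before a RefSeq start within that span. They are shown in the direction of transcription with the match in capitals. A match of letters is a description and does not show that a factor binds there.
*Foxa1*: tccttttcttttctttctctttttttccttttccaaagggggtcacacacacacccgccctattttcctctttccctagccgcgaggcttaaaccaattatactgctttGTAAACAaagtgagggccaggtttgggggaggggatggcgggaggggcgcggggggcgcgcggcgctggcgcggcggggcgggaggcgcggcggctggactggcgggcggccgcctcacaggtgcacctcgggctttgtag
*Prlr*: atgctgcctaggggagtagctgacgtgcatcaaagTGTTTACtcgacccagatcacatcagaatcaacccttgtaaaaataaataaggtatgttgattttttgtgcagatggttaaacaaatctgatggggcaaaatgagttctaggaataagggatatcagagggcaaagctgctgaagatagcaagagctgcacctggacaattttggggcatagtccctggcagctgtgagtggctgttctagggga
The letters AGATAA of GATA factors were in none of the 10 windows and in 9.99% of all windows, and the estrogen response element, GGTCA and TGACC with 3 bases between, was in none of the 10 and in 0.0639% of all. TTCNNNGAA, the letters of STAT5 sites, were in the *Prlr* window shown and in 1 of 2 *Esr1* windows, beside 7.02% of all windows.

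For 4 of the 10 genes the protein-coding genes most like them across the 11 tumors were looked up among 13480 genes, by Pearson's r of log2(CPM + 1) and with no test. Close to *Elf5* were *Rpp14* (r = 0.906) and *Nt5dc1* (r = 0.889). *Esr1* was followed by *Id3* (r = 0.930), *Slc5a1* (r = 0.926) and *Acsl5* (r = 0.925), of which *Id3* encodes an inhibitor of helix-loop-helix factors. *Sox10* had the closest pattern with *Taf13* (r = 0.942), *Rab1b* (r = 0.933) and *Papss1* (r = 0.916). *Trp63* had it with *Tril* (r = 0.962), *Jag2* (r = 0.959), which encodes a Notch ligand, and *Pdgfa* (r = 0.950), a growth factor gene. No gene named here as alike passed the test between the genotypes, with adjusted p between 0.194 and 0.769 (edgeR). These 11 values per gene share their libraries and depth.

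Genes downstream of the receptors were read from lists. The lists were chosen with earlier results of these data known, so their counts beside the shares of all genes are descriptions. Of 14 estrogen and progesterone target genes, 12 were in the tables, 9 were tested and 0 passed (edgeR; 1 at an unadjusted p under 0.05, 0 after adjustment with DESeq2 and 1 with limma-voom, *Ccnd1*, beside 18.7%, 6.34% and 11.2% of all genes). The median log2 fold change was -0.18. The largest difference was that of *Ccnd1*, the cyclin D1 gene, at 647, 616, 478, 457, 357 and 483 CPM across PyMT *Pcbp1*–/– replicates 1 to 6, against 304, 543, 276, 343 and 208 CPM across PyMT *Pcbp1*+/+ replicates 1 to 5. All 6 PyMT *Pcbp1*–/– tumors were above the PyMT *Pcbp1*+/+ mean for *Ccnd1*, but PyMT *Pcbp1*+/+ replicate 2 lay among them, and the difference did not pass (log2 fold change 0.60, standard error 0.21, 95% confidence interval 0.14 to 1.06, adjusted p = 0.155). It passed with limma-voom, and without PyMT *Pcbp1*+/+ replicate 2 it was 0.84 (adjusted p = 0.0252 with edgeR; adjusted p between 0.0161 and 0.263 over 22 alternatives). *Areg*, which encodes the estrogen-induced growth factor amphiregulin, was 7.67 CPM in PyMT *Pcbp1*+/+ replicate 1, the tumor with the most *Pgr*, and at most 2.40 CPM in any other tumor (log2 fold change -0.58, standard error 0.74, adjusted p = 0.712), and its sign turned without that tumor and with limma-voom (to 0.87 and 0.14; adjusted p between 0.477 and 0.990 over 22 alternatives). *Cited1*, a coactivator of the estrogen receptor, was highest in PyMT *Pcbp1*+/+ replicates 3 and 4 at 16.7 and 12.2 CPM and lowest in PyMT *Pcbp1*+/+ replicate 2 at 0.379 CPM (log2 fold change -0.52, standard error 0.65, adjusted p = 0.711), and its sign turned without PyMT *Pcbp1*+/+ replicate 3 (to 0.13; adjusted p between 0.328 and 0.998 over 22 alternatives). *Cited1* was -0.82 without PyMT *Pcbp1*+/+ replicate 2.

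Of 9 prolactin signalling genes, all tested, 0 passed (edgeR; 3 at an unadjusted p under 0.05, 0 after adjustment with DESeq2 and 1 with limma-voom, *Id2*, beside 18.7%, 6.34% and 11.2% of all genes). The median log2 fold change was -0.028. The STAT5-induced feedback inhibitors differed in sign. *Cish* was below the PyMT *Pcbp1*+/+ mean in all 6 PyMT *Pcbp1*–/– tumors (log2 fold change -0.38, standard error 0.17, adjusted p = 0.249), and so was *Socs1* (log2 fold change -0.58, standard error 0.26, adjusted p = 0.261), which was -0.37 without PyMT *Pcbp1*+/+ replicate 3. *Socs2* had a value above 0 (log2 fold change 0.48, standard error 0.30, adjusted p = 0.424), with PyMT *Pcbp1*–/– replicates 1, 2 and 3 at 159, 142 and 91.7 CPM and the other 3 between 45.4 and 54.5 CPM. The *Socs2* estimate was 0.25 without PyMT *Pcbp1*–/– replicate 1, 0.32 without PyMT *Pcbp1*–/– replicate 2 and 0.14 with limma-voom.

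Milk genes are switched on in lactation, when prolactin and *Elf5* act. Of 10 listed, 7 were tested and 0 passed (edgeR; 1 at an unadjusted p under 0.05, 0 after adjustment with DESeq2 and 2 with limma-voom, *Csn3* and *Lalba*, beside 18.7%, 6.34% and 11.2% of all genes). The median log2 fold change was -0.047, with 4 values below 0 and 3 above. *Csn3*, the kappa-casein gene, was at 648, 1167, 454, 674, 215 and 494 CPM across PyMT *Pcbp1*–/– replicates 1 to 6, against 2085, 361, 1169, 1859 and 1637 CPM across PyMT *Pcbp1*+/+ replicates 1 to 5. All but 1 PyMT *Pcbp1*+/+ tumor exceeded every PyMT *Pcbp1*–/– tumor, the exception being PyMT *Pcbp1*+/+ replicate 2, and the difference did not pass (log2 fold change -1.22, standard error 0.43, 95% confidence interval -2.15 to -0.30, adjusted p = 0.150). It passed with limma-voom and without PyMT *Pcbp1*+/+ replicate 2, at -1.47 (adjusted p = 0.0446 with edgeR; adjusted p between 0.0195 and 0.318 over 22 alternatives). *Lalba*, which encodes the lactose synthase subunit alpha-lactalbumin, lay below the PyMT *Pcbp1*+/+ mean in all 6 PyMT *Pcbp1*–/– tumors (log2 fold change -1.07, standard error 0.51, adjusted p = 0.281), and passed only with limma-voom (-1.69; adjusted p between 0.0337 and 0.518 over 22 alternatives). *Csn2*, the beta-casein gene, was no higher than 3.98 CPM in any tumor and at 0 counts in 1 tumor of each group (log2 fold change -1.58, standard error 1.00, adjusted p = 0.424). The *Csn2* estimate was -1.05 without PyMT *Pcbp1*+/+ replicate 3.

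Over the 9 pathway lists 3 of 96 tested entries were called with edgeR, beside 2.27% of all genes, with some genes in more than 1 list. Luminal progenitor genes held 2 of these 3 calls. Of 7 tested, 2 were lower and 0 higher in PyMT *Pcbp1*–/– tumors, where 1.66% of all genes were lower, and the median log2 fold change was -0.66, beside -0.00012 for all genes. This list too was chosen with earlier results of these data known, so the contrast with all genes is a description and not a test. *Trf*, the transferrin gene, was at 534, 306, 312, 384, 429 and 512 CPM across PyMT *Pcbp1*–/– replicates 1 to 6, against 669, 675, 611, 717 and 831 CPM across PyMT *Pcbp1*+/+ replicates 1 to 5. The groups did not overlap, and *Trf* was lower in PyMT *Pcbp1*–/– tumors (log2 fold change -0.77, standard error 0.16, 95% confidence interval -1.12 to -0.41, adjusted p = 0.0322), although the call was lost without any 1 of PyMT *Pcbp1*–/– replicates 3, 4 and 5 or PyMT *Pcbp1*+/+ replicates 1, 3, 4 and 5 (log2 fold change between -0.80 and -0.67; adjusted p between 0.00102 and 0.0782 over 22 alternatives). *Cd14*, which encodes a coreceptor for bacterial lipopolysaccharide, was at 64.8, 76.2, 96.4, 102, 78.1 and 64.7 CPM across PyMT *Pcbp1*–/– replicates 1 to 6, against 309.5, 282, 97.3, 117 and 125 CPM across PyMT *Pcbp1*+/+ replicates 1 to 5. Replicates 1 and 2 of the PyMT *Pcbp1*+/+ group were far above the others, and PyMT *Pcbp1*+/+ replicate 3 overlapped the PyMT *Pcbp1*–/– tumors. Its call was close to the threshold (log2 fold change -1.19, standard error 0.28, 95% confidence interval -1.79 to -0.58, adjusted p = 0.0481) and was lost in 15 of 22 alternatives, among them without any 1 of the 6 PyMT *Pcbp1*–/– tumors (-1.27 to -1.13), without PyMT *Pcbp1*+/+ replicate 1 (-0.96) without PyMT *Pcbp1*+/+ replicate 2 (-0.98) and with limma-voom (-0.70). It had a log2 fold change of -0.53 when both of those tumors were left out (an alternative chosen after seeing the data; adjusted p between 0.00200 and 0.193 over 22 alternatives).

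The third call was among other hormone receptors, where 1 of 16 tested genes was lower and 0 were higher, beside 1.66% and 0.608% of all genes (median log2 fold change -0.069). *Nr3c2*, the mineralocorticoid receptor gene, was at 27.2, 29.4, 34.4, 32.8, 19.9 and 36.3 CPM across PyMT *Pcbp1*–/– replicates 1 to 6, against 75.3, 45.1, 47.9, 55.7 and 52.4 CPM across PyMT *Pcbp1*+/+ replicates 1 to 5. Every PyMT *Pcbp1*–/– tumor was below every PyMT *Pcbp1*+/+ tumor (log2 fold change -0.87, standard error 0.15, 95% confidence interval -1.21 to -0.54, adjusted p = 0.0132). Among receptor coregulators, *Mbd3* and *Ncor1* had log2 fold changes of 0.14 (standard error 0.088, adjusted p = 0.430) and -0.11 (standard error 0.094, adjusted p = 0.556). *Mbd3* was 0.22 and *Ncor1* -0.018 with limma-voom, and *Ncor1* was -0.053 without PyMT *Pcbp1*+/+ replicate 2.

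Other luminal transcription factors numbered 15, all tested, with 0 calls (edgeR; 3 at an unadjusted p under 0.05, 1 after adjustment with DESeq2, *Runx1*, and 2 with limma-voom, *Runx1* and *Bcl11a*, beside 18.7%, 6.34% and 11.2% of all genes), 12 log2 fold changes below 0 and a median of -0.088. *Runx1*, a luminal partner of the estrogen receptor, was at 189, 221, 218, 234, 149.5 and 175 CPM across PyMT *Pcbp1*–/– replicates 1 to 6, against 329.7, 503, 243, 309 and 252 CPM across PyMT *Pcbp1*+/+ replicates 1 to 5. The groups did not overlap, yet the adjusted p missed the threshold (log2 fold change -0.72, standard error 0.17, 95% confidence interval -1.10 to -0.34, adjusted p = 0.0518). *Runx1* passed with DESeq2, with limma-voom and without PyMT *Pcbp1*+/+ replicate 2, its highest tumor (-0.51; adjusted p between 0.00434 and 0.117 over 22 alternatives). *Spdef*, an ETS factor gene of secretory luminal cells, shared its extremes with *Foxa1*, being lowest in PyMT *Pcbp1*+/+ replicate 2 and highest in PyMT *Pcbp1*+/+ replicate 4 (log2 fold change -1.05, standard error 0.46, adjusted p = 0.249). *Tbx3* was above the PyMT *Pcbp1*+/+ mean in 5 of 6 PyMT *Pcbp1*–/– tumors (log2 fold change 0.66, standard error 0.29, adjusted p = 0.252). Other basal transcription factors were called in 0 of 12 (edgeR; 1 at an unadjusted p under 0.05, 0 after adjustment with DESeq2 and 0 with limma-voom, beside 18.7%, 6.34% and 11.2% of all genes). The median log2 fold change was 0.13. *Snai2*, which encodes the basal repressor Slug, was above the PyMT *Pcbp1*+/+ mean in 5 of 6 PyMT *Pcbp1*–/– tumors (log2 fold change 1.09, standard error 0.44, adjusted p = 0.207). *Twist1* and *Id4* had log2 fold changes of -0.68 (standard error 0.46, adjusted p = 0.455) and 0.45 (standard error 0.58, adjusted p = 0.717). Single tumors moved both values. *Twist1* was -0.33 without PyMT *Pcbp1*+/+ replicate 2, and *Id4* ran from 0.19 without PyMT *Pcbp1*+/+ replicate 2 to 1.14 without PyMT *Pcbp1*+/+ replicate 1.

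Of 17 paralogs of the 10 genes, 12 were tested and 0 passed (edgeR; 3 at an unadjusted p under 0.05, 2 after adjustment with DESeq2, *Gata2* and *Trp73*, and 1 with limma-voom, *Trp73*, beside 18.7%, 6.34% and 11.2% of all genes). The median log2 fold change was -0.029. *Trp73*, which encodes the p63 relative p73, was at 2.56, 0.975, 3.29, 2.19, 1.21 and 2.24 CPM across PyMT *Pcbp1*–/– replicates 1 to 6, against 1.28, 0.285, 0.701, 0.547 and 0.0893 CPM across PyMT *Pcbp1*+/+ replicates 1 to 5. All 6 PyMT *Pcbp1*–/– tumors were above the PyMT *Pcbp1*+/+ mean and the groups overlapped through PyMT *Pcbp1*+/+ replicate 1 (log2 fold change 1.83, standard error 0.48, 95% confidence interval 0.78 to 2.87, adjusted p = 0.0694). *Trp73* passed with DESeq2, with limma-voom and without PyMT *Pcbp1*–/– replicate 2 (1.98; adjusted p between 0.00827 and 0.150 over 22 alternatives), and such low levels are imprecise. *Gata2*, the relative of *Gata3*, reached 8.77 CPM in PyMT *Pcbp1*–/– replicate 4 and at most 4.10 CPM elsewhere (log2 fold change 1.33, standard error 0.43, adjusted p = 0.124), and passed only with DESeq2 (adjusted p between 0.0412 and 0.291 over 22 alternatives). The *Gata2* estimate was 0.87 without PyMT *Pcbp1*–/– replicate 4. *Gata4*, *Gata5* and *Foxa2* were not listed in the tables.

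Of 87 markers in 14 lists of cell types, 65 were tested and 0 passed with edgeR, 11 had an unadjusted p under 0.05, and 5 passed with DESeq2 (*Muc1* and 4 dividing cell markers) and 8 with limma-voom, among them 6 dividing cell markers. Over all genes these shares were 18.7% at an unadjusted p under 0.05, 6.34% with DESeq2 and 11.2% with limma-voom. No listed marker was at 0 in every tumor, and their part in the levels above was not tested. Luminal epithelial markers summed to 1167, 1479, 1898, 1789.7, 2358 and 1681 CPM across PyMT *Pcbp1*–/– replicates 1 to 6, against 2056, 1439.6, 1566, 1983 and 1975 CPM across PyMT *Pcbp1*+/+ replicates 1 to 5, with *Cdh1* the most abundant of 9 at a mean of 321 CPM. The sum was lowest in PyMT *Pcbp1*–/– replicate 1 and next lowest in PyMT *Pcbp1*+/+ replicate 2, which were also the 2 lowest tumors in *Gata3*, *Foxa1* and *Prlr*. Of these 9 markers 6 had log2 fold changes below 0 and 3 above (median -0.053), and *Muc1* alone was called by any tool, by DESeq2 and limma-voom but not by edgeR. *Muc1*, a luminal mucin gene named after its values were seen, was at 30.3, 58.9, 39.3, 40.1, 50.7 and 44.2 CPM across PyMT *Pcbp1*–/– replicates 1 to 6, against 114, 41.8, 61.0, 75.1 and 144 CPM across PyMT *Pcbp1*+/+ replicates 1 to 5. All 6 PyMT *Pcbp1*–/– tumors were below the PyMT *Pcbp1*+/+ mean for *Muc1* and PyMT *Pcbp1*+/+ replicate 2 overlapped them (log2 fold change -0.99, standard error 0.28, 95% confidence interval -1.60 to -0.39, adjusted p = 0.0880). Basal and myoepithelial markers summed to 645, 179, 478, 614, 502 and 687 CPM across PyMT *Pcbp1*–/– replicates 1 to 6, against 1326, 417, 445, 478 and 155 CPM across PyMT *Pcbp1*+/+ replicates 1 to 5, with *Mylk* the most abundant of 11 at a mean of 138 CPM, 6 log2 fold changes below 0 and 5 above (median -0.040). The sum was highest in PyMT *Pcbp1*+/+ replicate 1 and lowest in PyMT *Pcbp1*+/+ replicate 5, as were *Trp63* and *Pgr*. The basal keratin genes *Krt14* and *Krt5* were chosen after their values were seen. *Krt14* was 277 CPM in PyMT *Pcbp1*+/+ replicate 2 and at most 47.6 CPM in any other tumor, while *Krt5* was 9.01 CPM there and 184 CPM in PyMT *Pcbp1*+/+ replicate 1.

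*Sox10* and *Sox9* are also known from cells outside the epithelium. Schwann cell markers, 6 of 7 in the tables, summed to between 90.3 and 119 CPM in PyMT *Pcbp1*–/– tumors and between 92.4 and 111 CPM in PyMT *Pcbp1*+/+ tumors, most of it *Mbp* at a mean of 60.1 CPM. Melanocyte markers, 2 of 5 in the tables, summed to at most 1.37 CPM, with *Pmel* the most abundant. Chondrocyte markers, 3 of 4 in the tables, reached 88.7 CPM in PyMT *Pcbp1*–/– replicate 5, nearly all from *Col2a1*, a collagen gene under *Sox9* control in cartilage, at 87.6 CPM. *Sox9* in that tumor was 212 CPM, near the median of its group, and the *Col2a1* difference did not pass (log2 fold change 3.39, standard error 1.24, 95% confidence interval 0.70 to 6.08, adjusted p = 0.168).

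Dividing cell markers summed to 445, 674, 697, 645, 652 and 622 CPM across PyMT *Pcbp1*–/– replicates 1 to 6, against 331, 513, 421, 519 and 459 CPM across PyMT *Pcbp1*+/+ replicates 1 to 5. The sums overlapped through PyMT *Pcbp1*–/– replicate 1 alone. All 8 log2 fold changes were above 0 (median 0.45) and 0 passed (edgeR; 5 at an unadjusted p under 0.05, 4 after adjustment with DESeq2, *Mki67*, *Cdk1*, *Ccnb1* and *Ccna2*, and 6 with limma-voom, beside 18.7%, 6.34% and 11.2% of all genes), with *Mki67* the most abundant (log2 fold change 0.49, standard error 0.14, adjusted p = 0.101). Stromal lists overlapped between the groups. Fibroblast markers summed to 374 to 786 CPM in PyMT *Pcbp1*–/– and 352 to 676 CPM in PyMT *Pcbp1*+/+ tumors, led by *Col1a1*, with 2 log2 fold changes below 0 and 4 above (median 0.24) and none called. Endothelial markers summed to 37.8 to 76.9 CPM in PyMT *Pcbp1*–/– and 44.2 to 76.3 CPM in PyMT *Pcbp1*+/+ tumors, led by *Cdh5*, with all 5 log2 fold changes below 0 (median -0.24) and none called. Macrophage markers summed to 86.9 to 175 CPM in PyMT *Pcbp1*–/– and 58.0 to 137 CPM in PyMT *Pcbp1*+/+ tumors, led by *C1qa*, with all 5 log2 fold changes above 0 (median 0.25) and none called. Adipocyte markers, led by *Cfd*, were highest in PyMT *Pcbp1*+/+ replicate 3 at 91.1 CPM and at most 36.8 CPM elsewhere, with all 6 log2 fold changes below 0 (median -0.81) and none called. Skeletal muscle markers, led by *Mb* on average, reached 30.8, 23.4 and 22.3 CPM in PyMT *Pcbp1*+/+ replicate 5 and PyMT *Pcbp1*–/– replicates 1 and 4. Epidermis and hair follicle markers, led by *Krt15*, were at most 21.0 CPM, T cell markers, led by *Cd8a*, at most 7.75 CPM and the 1 B cell marker in the tables, *Cd79b*, at most 0.773 CPM.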

How the data were processed

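Paired-end reads came from poly(A)-enriched, stranded libraries of 11 tumors, in 1 batch per the labels. Alignment by the authors used Bowtie2 and GRCm38. The deposited estimated counts (18.1% to 19.8% of values not whole) and the CPM that the authors derived from them were used; the counting step and its strand setting are not given in the sources used here. Counts were rounded, filtered and fitted in edgeR 4.0.16 under R 4.3.3 (TMM, default filter, genotype as the only term, quasi-likelihood test), and log2 fold changes have standard errors derived from F. Nothing in the labels says that tumors came from separate animals, so p-values measure the spread between tumors.

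Stop positions were moved by 1 base, since RefSeq ends equalled the stop minus 1 for 4722 of 15676 genes matched by name and the stop for 406. Exon lengths, with all annotated exons of a gene merged, came from GENCODE vM39 by Ensembl identifier.

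The genes and lists were chosen with earlier results of these data known. Named genes are the 10, *Pcbp1*, those of each pathway list that passed or otherwise the 3 of largest absolute log2 fold change, the most abundant marker of each cell type, and the 3 genes most like 4 of the 10 at a mean of at least 1 CPM; some of these are not reported here. Alternatives were DESeq2 1.42.0, limma 3.58.1 (as limma-voom with sample quality weights and on log2 CPM), other scalings and filters, protein-coding genes only, the replicate number as a block and each tumor left out. Leaving out 2 tumors together, and other scales for the relations, were chosen after seeing the data, and other genes named beside a count by another tool were named after their values were seen. The edgeR fit was tested on simulated data with 6 against 5 samples. It recovered 16.92% of genes changed 1.5-fold, 65.67% changed 2-fold and 98.36% changed 4-fold. Of its calls, 7.258% were unchanged genes. The changed genes were drawn at random from the tested genes above a low mean count. The 10 regulators and receptors had a median standard error of 0.30 beside 0.17 for all genes, so the recovered shares need not hold for them.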

Additional observations from a re-analysis of the deposited data

Results flagged for a closer look

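A tumor lay far from the rest of its group in 10 of 94 groups of values looked at. The rule used gives about 1 in 20 by chance for independent groups of normal values. CPM values need not be normal and the groups share the same 11 tumors, so the count cannot be set against that rate. *Esr1* was 80.9 CPM in PyMT *Pcbp1*–/– replicate 6 and 41.4 CPM in the next tumor of its group. *Pgr* was 167 CPM in PyMT *Pcbp1*+/+ replicate 1 and 25.3 CPM in the next. The same tumor stood apart in the estrogen target *Areg*, at 7.67 CPM with 0.964 CPM next, and in summed basal and myoepithelial markers, at 1326 CPM with 478 CPM next. *Gata2* was 8.77 CPM in PyMT *Pcbp1*–/– replicate 4 with 4.10 CPM next.

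The other values were sums of markers. Adipocyte markers were 91.1 CPM in PyMT *Pcbp1*+/+ replicate 3 with 15.4 CPM next, skeletal muscle markers 30.8 CPM in PyMT *Pcbp1*+/+ replicate 5 with 7.25 CPM next, and chondrocyte markers 7.87 CPM in PyMT *Pcbp1*+/+ replicate 2 with 2.28 CPM next. Epidermis and hair follicle markers were 21.0 CPM in PyMT *Pcbp1*–/– replicate 6 with 10.00 CPM next. Dividing cell markers were low in PyMT *Pcbp1*–/– replicate 1, at 445 CPM with 622 CPM in the nearest tumor.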

How the results depend on the processing

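None of the 10 regulators and receptors was called in any of 22 alternatives, where the lowest adjusted p was 0.120 (*Elf5*, limma-voom). *Elf5*, *Esr1*, *Sox9*, *Sox10* and *Trp63* kept the sign of their log2 fold change in all 22, and the other 5 changed it 25 times in all. The number of genes differing between the genotypes was 436 (319 lower, 117 higher) with edgeR, 1216 (730 lower, 486 higher) with DESeq2 and 2158 (1190 lower, 968 higher) with limma-voom and sample quality weights, a change of tool and of the weight of each tumor. It was 206 (159 lower, 47 higher) without PyMT *Pcbp1*+/+ replicates 1 and 2, an alternative chosen after seeing the data. With each tumor left out it ran from 186 to 541 (144 to 389 lower, 41 to 187 higher), with more than 1.5 times fewer calls without any 1 of PyMT *Pcbp1*–/– replicates 3 to 6 and PyMT *Pcbp1*+/+ replicates 1, 3 and 4. The share of calls that were higher was 26.8% with edgeR, 40.0% with DESeq2 and 44.9% with limma-voom. The cause was not tested. With each tumor left out, 3 to 9 of 45 pairs were related in place of 6, the lowest without PyMT *Pcbp1*+/+ replicate 2.

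Same-numbered tumors correlated at -0.17 to 0.32 in their deviations from the group means, and not every tumor correlated best with its own number, so the numbers were not taken to pair tumors. With the replicate block, in 10 tumors, 160 (118 lower, 42 higher) genes differed, 0 of the 10 were called, *Nr3c2*, called in the other 21 alternatives, and *Cd14* lost their calls (-0.95, adjusted p = 0.0529; -1.01, adjusted p = 0.193), and the log2 fold changes of *Pgr* and *Areg* turned to 0.32 and 0.019.

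Signs turned as follows, each without a call. *Prlr* was 0.00046 (DESeq2), 0.0083 (no filter), 0.11 (limma, CPM + 1) and 0.11 (limma, CPM + 0.1). *Gata3* was 0.015 and 0.016 on these 2 limma scales, *Pgr* 0.35 and 0.40, and *Cited1* 0.19 on the second. With limma-voom *Pgr* was 0.15, *Ehf* 0.16 and *Areg* 0.14. Without PyMT *Pcbp1*+/+ replicates 1 and 2 *Pgr* was 0.79 and *Areg* 0.94. With each tumor left out *Prlr* ran from -0.22 to 0.20, *Pgr* from -0.78 to 0.95, *Gata3* from -0.30 to 0.0068, *Foxa1* from -0.62 to 0.11, *Ehf* from -0.12 to 0.13, *Areg* from -0.86 to 0.87 and *Cited1* from -0.82 to 0.13. The cause was not tested.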
